A study of Mus musculus with 8 samples.

Results

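Gene expression was compared between 16 hr and 4 hr after E14 mouse ESCs were moved from serum to 2i, with the libraries chosen by the time points in their labels. E14 is a feeder-independent ESC line of the 129/Ola strain, and all cells came from serum medium with LIF. 2i is a serum-free medium with LIF and 2 inhibitors, PD0325901 against MEK and CHIR99021 against GSK3. The comparison used 4 of the 8 libraries of the time course. They were 1 library in 2i and 1 in 2i+vitC (17 µM vitC, L-ascorbic acid) at each time, so vitC was present on both sides in equal measure. No serum library was analysed here, and the reference point is therefore 4 hr in 2i and not serum.

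In serum, FGF4 signalling through MEK and ERK primes ESCs for differentiation, and blocking MEK removes this signal. Blocking GSK3 stabilizes beta-catenin, which acts with TCF/LEF factors, and LIF acts through JAK and STAT3. Together these inputs hold ESCs in a naive state that resembles the preimplantation epiblast. The change of medium also withdraws serum, which supplies lipids, growth factors, retinoids, and the lysophospholipids that drive actin-dependent transcription through SRF and YAP.

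The total counts were 17403697 (2i) and 13157570 (2i+vitC) at 4 hr, and 18434932 and 6969300 at 16 hr. CPM values of genes are counts scaled to library total, with edgeR's TMM factors. Intervals and floors were taken on library totals without these factors. At 10 CPM the Wilson 95% interval ran from 8.64 to 11.5 CPM in the deepest of these libraries and from 7.95 to 12.7 CPM in the shallowest. The floor of 3 counts corresponded to 0.163 to 0.431 CPM. Intervals and floors cover counting error only. Both 4 hr libraries ran on lane 8 and both 16 hr libraries on lane 7, so that lane and time cannot be told apart in this comparison, and the 24 hr values, which come from the lane of 4 hr, are given beside it. They share the 4 hr libraries with it and are no independent test. Reads on Lars2, Gm23935, and ENSMUSG00000093077 made up 0.0277% and 0.0113% of counts at 4 hr, 0.206% at 16 hr in 2i, and 7.11% at 16 hr in 2i+vitC. The 2i pair thus had few such reads on either side, and ratios within it are given for that reason. The 24 hr libraries had more of these reads, 5.92% of counts in 2i and 6.37% in 2i+vitC, and the 32 hr libraries had 0.564% and 4.21%. The 24 hr 2i+vitC library also had the smallest total of the 8 libraries, at 4753528 counts. The part of these reads in the results was not tested except as described for the covariate. In bulk RNA a lower level cannot be told apart from fewer cells of one type.

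Between 4 hr and 16 hr, 2448 of 14931 genes tested changed (16.4%), of which 1367 rose (9.16%) and 1081 fell (7.24%). These shares are the background for the counts of each gene list below, unless another fit is named, and several lists lie near them. The threshold was an adjusted p of 0.05 from edgeR's quasi-likelihood test with treatment as a block, fitted to all 8 libraries. With 3 residual degrees of freedom, the error is the departure of each treatment from a shared course over time. Variation between cultures and libraries enters it too and cannot be separated from it, as no combination had a replicate. The median log2 fold change was 0.92 among genes that rose and -0.70 among genes that fell. A change of at least 2-fold (log2 of 1) was found for 587 of the rises and 263 of the falls. The median level was 62.2 CPM among genes that fell and 25.8 CPM among genes that rose, and the median annotated exon length 3522 and 5397 bp, against 4162 bp over all genes tested. The number of calls was 1792 without the 4 hr 2i library, 1175 without the 16 hr 2i library, 647 without the 4 hr 2i+vitC library, and 1456 without the 16 hr 2i+vitC library. With a covariate for the read share of Lars2 and its 2 companion features, 73 genes passed (34 rose and 39 fell), with 2179 at an unadjusted p under 0.05. This covariate was low at 4 hr and high at most later times, and so overlaps with time. Calls over all genes were thus fewer in each of these fits. List counts given below for such a fit are to be read beside its own number of calls, since a lower count is not particular to the list.

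The ratio of 16 hr to 4 hr was also taken within each treatment. For 11053 genes (mean of at least 5 CPM), the ratio of 16 hr to 4 hr in 2i and that in 2i+vitC had a Pearson r of 0.59 and a Spearman rho of 0.57, given as a description because genes of the same 4 libraries are not replicates. The spread of the ratios across genes was larger in 2i+vitC (SD 0.67) than in 2i (SD 0.54), and the ratios differed by at least 1 on the log2 scale for 705 genes.

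**Figure D1:**
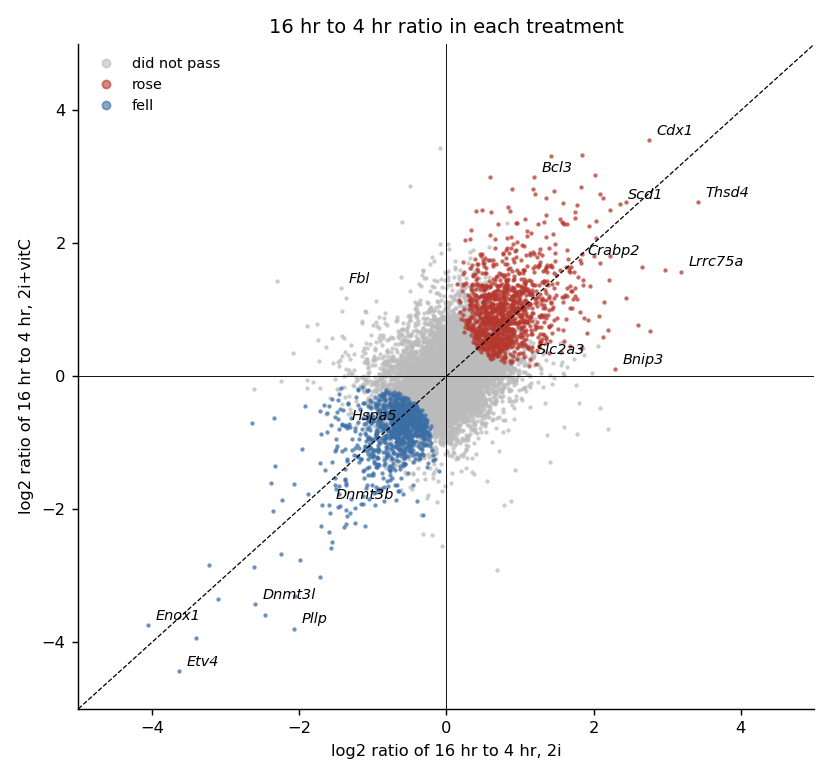
Each point is 1 of 11053 genes with a mean of at least 5 CPM, with the log2 ratio of 16 hr to 4 hr in 2i on the x axis and in 2i+vitC on the y axis. Colours mark genes that rose or fell past the threshold, the dashed line marks equal ratios, and 7 genes, of which 1 is protein coding, lie outside the axes. Etv4, Enox1, and Dnmt3l lie at the lower left and Cdx1, Thsd4, and Scd1 at the upper right, whereas Bnip3 lies at the right near a 2i+vitC ratio of 0.

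Etv4 and Dusp4, which respond to MEK-ERK signalling, were among the 12 protein-coding genes with the largest falls, whereas the FGF-ERK list as a whole had as many rises as falls. In the order 2i and 2i+vitC, as in all values that follow, Etv4, an ETS factor induced by ERK, was at 54.7 and 59.3 CPM at 4 hr and at 4.26 and 2.59 CPM at 16 hr. This was a 16.8-fold decrease (log2 fold change -4.07, standard error 0.33, adjusted p = 4.85e-05), and the value at 24 hr was -5.38. Dusp4, a phosphatase that acts on ERK in a feedback loop, was at 32.5 and 34.8 CPM and then at 5.73 and 2.74 CPM (log2 fold change -3.04, standard error 0.33, adjusted p = 0.000286). Both genes were lower in each 16 hr library than in either 4 hr library, and both passed whichever library was left out. Dusp5, a nuclear ERK phosphatase, also fell (log2 fold change -1.09), whereas Dusp6 (-1.03, adjusted p = 0.088) and Etv5 (-0.24, adjusted p = 0.37) did not pass. Etv5 was at 97.4 CPM at 4 hr and 106 CPM at 16 hr in 2i, against 111 and 73.5 CPM in 2i+vitC. Other members of the pathway list moved the other way. The receptor Fgfr1 was at 73.5 and 74.8 CPM and then at 107 and 170 CPM (log2 fold change 0.85), the feedback inhibitor Spry2 rose by 0.78, and the ETS factor Elk1 rose by 0.67. Of 24 FGF-ERK feedback and ETS genes tested, 3 rose and 3 fell, with a median log2 fold change of 0.01. Egr1 and Spry4 had 26 and 42 counts over all 8 libraries and were not tested.

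Of 22 immediate early genes and MYC family genes, 4 rose and 2 fell. Those rises numbered 2, 0, 1, and 2 without the 4 hr 2i, 16 hr 2i, 4 hr 2i+vitC, and 16 hr 2i+vitC libraries, and the falls 1, 2, 0, and 0. Atf3, a stress-inducible bZIP factor, fell by 1.02 on the log2 scale, and Mxd3, a MAX partner that opposes MYC, fell by 1.23. Zfp36, which destabilizes AU-rich mRNAs, rose by 1.28. Fos was at 3.78 and 3.81 CPM at 4 hr and at 1.89 and 1.30 CPM at 16 hr, without passing (adjusted p = 0.14). Mycn, the main MYC gene of ESCs by count, was at 104 and 80.4 CPM and then at 68.3 and 68.4 CPM (log2 fold change -0.43, adjusted p = 0.097). Myc was at 2.62 and 1.04 CPM and then at 3.36 and 6.77 CPM (adjusted p = 0.076). Among the genes named here and in the account of ERK genes, only Etv4 and Dusp4 passed in each of the 4 fits that left out 1 library. The 7 others that passed lost their call without the 4 hr 2i+vitC library (adjusted p from 0.079 to 0.26), and 6 of them without the 16 hr 2i+vitC library (0.0501 to 0.17). Without either 2i library 3 were lost, at adjusted p-values of 0.059 to 0.14 (4 hr) and 0.054 to 0.22 (16 hr).

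**Figure D2:**
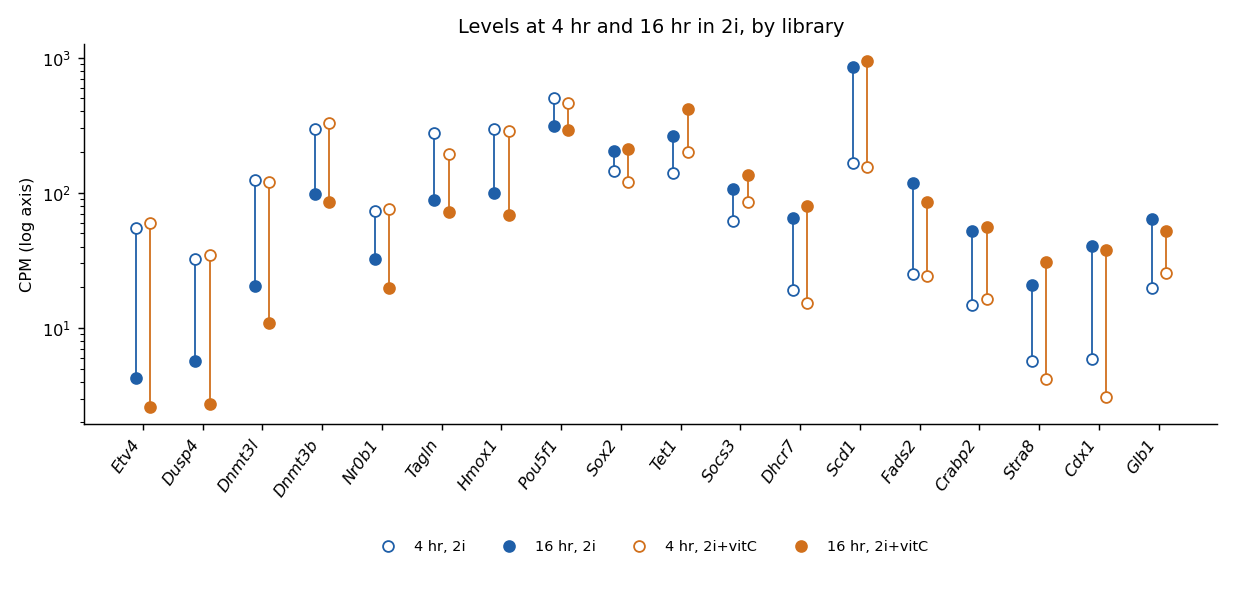
CPM on a log axis at 4 hr (open circles) and 16 hr (filled circles) for 18 genes, in 2i (blue) and 2i+vitC (orange), with 1 library per circle and a line joining the circles of a treatment. The genes were picked among those past the threshold. Both 16 hr libraries of each lie on one side of both 4 hr libraries, as in all 1081 falls and 1358 of the 1367 rises. Over all genes tested, both lie above in 29.3% and below in 28.8%. In 2i, Etv4 goes from 54.7 to 4.26 CPM and Scd1 from 166 to 856 CPM.

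Besides Etv4 and Dusp4, the largest protein-coding falls comprised Enox1, Tgm3, Alox15, Utf1, Dnmt3l, Pdzd4, Pllp, Enpp2, Epha1, and Apln. Enox1, a cell-surface oxidase, was at 13.8 and 13.6 CPM at 4 hr and at 0.683 and 0.865 CPM at 16 hr, which was the largest fall of a protein-coding gene with a mean of at least 5 CPM (log2 fold change -4.26, standard error 0.47, adjusted p = 0.000295). Tgm3, a transglutaminase, went from 10.4 and 13.4 CPM to 0.841 and 0.720 CPM, and Alox15, a lipoxygenase, from 17.5 and 20.6 CPM to 1.89 and 1.87 CPM. Alox15 was lower again at 24 hr, with a log2 fold change of -6.29 against -3.30 at 16 hr. Pdzd4 was at 84.1 and 84.9 CPM and then at 13.6 and 11.5 CPM (log2 fold change -2.77, adjusted p = 4.66e-05). Pllp, a myelin and epithelial membrane protein, fell further in 2i+vitC (ratio -3.80) than in 2i (-2.06). Epha1, an ephrin receptor, and Apln, a secreted peptide, fell by 2.47 and 2.39 on the log2 scale. All 12 of the largest falls, Etv4 and Dusp4 included, passed in each of the 4 fits that left out a library, and all had a fall past the threshold at 24 hr as well.

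The largest protein-coding rises, apart from Lars2, were those of Cdx1, Thsd4, Ccdc80, Crxos, Zfp521, Scd1, Irgm2, Klhdc7a, Fgfbp3, Lrrc75a, and Stra8. Cdx1, a caudal homeobox factor that responds to Wnt and to retinoic acid, was at 5.88 and 3.06 CPM at 4 hr and at 40.6 and 37.6 CPM at 16 hr (log2 fold change 3.15, standard error 0.23, adjusted p = 3.77e-05). Thsd4, an extracellular matrix protein, went from 1.45 and 3.66 CPM to 17.2 and 23.3 CPM, and Ccdc80, also secreted, from 1.75 and 2.01 CPM to 10.2 and 13.3 CPM. Crxos, a homeobox gene expressed in ESCs, rose by 2.60 and the zinc finger gene Zfp521 by 2.59 on the log2 scale. Scd1 and Stra8 are described with their pathways. Irgm2, an interferon-inducible GTPase, was at 1.98 and 1.57 CPM and then at 9.15 and 10.95 CPM. Klhdc7a (2.46), Fgfbp3, which encodes an FGF-binding protein (2.45), and Lrrc75a (2.44) had fitted log2 fold changes within 0.02 of one another, which is less than their standard errors of 0.25 to 0.36. These 11 genes passed in each of the 4 fits that left out a library. Their 24 hr values were between 2.23 and 3.93 on the log2 scale, all past the threshold.

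**Figure D3:**
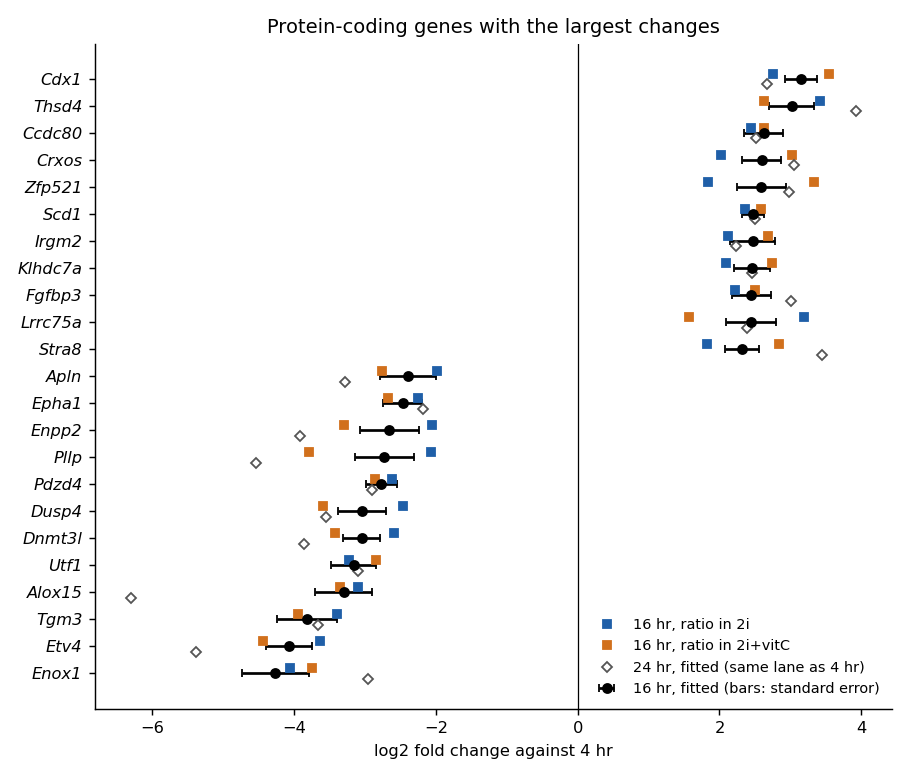
Log2 fold changes against 4 hr for the 11 protein-coding genes other than Lars2 with the largest rises and the 12 with the largest falls. Black circles are fitted 16 hr values with their standard errors, squares the ratios in 2i (blue) and 2i+vitC (orange), and open diamonds the fitted 24 hr values, which share the 4 hr libraries; Alox15 reaches -6.29 and Etv4 -5.38 at 24 hr.

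The factors of naive pluripotency rose in part. Of 31 tested, 8 rose (25.8%) and 3 fell (9.68%), and the median log2 fold change was 0.20 against 0.01 over all genes. Tfcp2l1, a LIF-STAT3 target that sustains naive cells, was at 335 and 398 CPM at 4 hr and at 590 and 764 CPM at 16 hr (log2 fold change 0.88, standard error 0.15, adjusted p = 0.00317). Klf2, which ERK signalling destabilizes as a protein, rose by 0.83, Klf5 by 1.51, Tbx3 by 0.65, and Dppa3, a germline and preimplantation gene, by 0.82. Nanog was at 395 and 437 CPM and then at 569 and 436 CPM (adjusted p = 0.25), so that the 16 hr and 4 hr libraries overlapped. Klf4 (log2 fold change 0.40), Esrrb (0.35), and Prdm14 (0.44) did not pass, at adjusted p-values of 0.17, 0.14, and 0.17. The falls were led by Nr0b1, an orphan nuclear receptor of the naive network, which was at 72.7 and 75.8 CPM and then at 32.4 and 19.9 CPM (log2 fold change -1.58, adjusted p = 0.00154). Zfp42 (Rex1), a widely used marker of naive cells, went from 172 and 165 CPM to 100.7 and 81.7 CPM (-0.91, adjusted p = 0.00515). At 24 hr its value was -0.51 (adjusted p = 0.052).

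Among 17 core pluripotency factors, 2 rose and 4 fell. Pou5f1 (Oct4) was at 505 and 465 CPM at 4 hr and at 309 and 292 CPM at 16 hr, a fall of 0.69 on the log2 scale (standard error 0.13, adjusted p = 0.00579) with no overlap of the groups. Sox2, its partner, moved the other way, from 145 and 120 CPM to 204 and 212 CPM (log2 fold change 0.66, adjusted p = 0.0117). Sall1 rose by 0.76, and Sall4 did not pass (0.23, adjusted p = 0.35). Utf1, a chromatin-bound ESC factor, was at 18.97 and 14.4 CPM and then at 1.89 and 1.87 CPM, a log2 fold change of -3.16 (adjusted p = 0.000191). The RNA-binding protein genes L1td1 and Lin28a fell by 0.82 and 0.58. Of the naive and core factors named as changed, Gbx2 of the LIF pathway included, Tfcp2l1, Nr0b1, Pou5f1, and Utf1 passed in each of the 4 fits that left out a library. Without the 4 hr 2i+vitC library 9 of the 14 lost their call (adjusted p from 0.056 to 0.32) and 1 naive factor in place of 8 rose. Without the 16 hr 2i+vitC library 6 were lost (0.056 to 0.28), without the 16 hr 2i library 4 (0.053 to 0.11), and without the 4 hr 2i library L1td1 was (0.064). The number of naive factors that rose was then 3, 4, and 7.

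Among LIF-STAT3 pathway genes, 11 of 23 tested rose (47.8%), 12 did not pass, and none fell in the fit to all libraries, and the median log2 fold change was 0.47 (0.62 in 2i, 0.37 in 2i+vitC). Socs3, the feedback inhibitor that STAT3 induces, was at 61.7 and 85.1 CPM at 4 hr and at 106 and 136 CPM at 16 hr (log2 fold change 0.73, standard error 0.14, adjusted p = 0.00622). The kinase gene Pim1 went from 22.6 and 21.5 CPM to 48.0 and 46.0 CPM (1.09, adjusted p = 0.00106), with a nearly equal ratio in both treatments. Bcl3, a nuclear IkB protein that STAT3 induces, rose more in 2i+vitC (ratio 2.99) than in 2i (1.19). Osmr, which encodes a receptor of the same cytokine family, was at 0.582 and 0.224 CPM and then at 2.58 and 2.16 CPM. The LIF receptor gene Lifr (0.51) rose as well, and so did Gbx2 (0.76), a STAT3 target whose 24 hr value was 0.23. Stat3 itself was at 102 and 105 CPM and then at 113 and 106 CPM (adjusted p = 0.69). The number that rose was 4 without the 4 hr 2i library, 5 without the 16 hr 2i library, 5 without the 4 hr 2i+vitC library, and 10 without the 16 hr 2i+vitC library. Pim1, Bcl3, and Tfcp2l1 passed in all 4 of these fits, whereas Lifr and Osmr passed in none of them, with adjusted p-values of up to 0.16.

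The RefSeq promoter window of Socs3 (GRCm38.p6) is shown for its match to the STAT motif, TTCNNNGAA, in capitals. The letters read the same on both strands. Of the windows of LIF-STAT3 pathway genes, 17.9% held a match, against 6.67% of 13510 windows of the genes tested. The share was 6.52% among windows of all genes that rose and 6.74% among those of all that fell.
Socs3, chr11:117969317-117969616, minus strand: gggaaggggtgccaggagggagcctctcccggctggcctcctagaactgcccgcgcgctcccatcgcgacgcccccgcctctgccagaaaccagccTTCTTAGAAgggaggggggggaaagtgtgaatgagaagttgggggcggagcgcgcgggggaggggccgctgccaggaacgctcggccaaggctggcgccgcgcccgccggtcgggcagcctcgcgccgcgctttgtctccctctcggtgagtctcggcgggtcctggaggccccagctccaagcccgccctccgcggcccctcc

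Of the genes of de novo methylation, Dnmt3b and Dnmt3l fell and Dnmt3a did not pass. Dnmt3b, which methylates unmethylated CpGs, was at 295 and 327 CPM at 4 hr and at 97.3 and 85.6 CPM at 16 hr (log2 fold change -1.77, standard error 0.14, adjusted p = 4.85e-05). Dnmt3l, the catalytically inactive cofactor of the DNMT3 enzymes, was at 123 and 120 CPM and then at 20.3 and 10.95 CPM (-3.05, standard error 0.27, adjusted p = 6.44e-05). Dnmt3a was at 84.2 and 72.8 CPM and then at 81.6 and 93.2 CPM (adjusted p = 0.49). The maintenance genes Dnmt1 (log2 fold change 0.23) and Uhrf1 (-0.01) had adjusted p-values of 0.31 and 0.97. Tet1, which oxidizes 5-methylcytosine, was at 141 and 200 CPM and then at 264 and 417 CPM (log2 fold change 0.98, standard error 0.16, adjusted p = 0.00241) that passed in each of the 4 fits that left out a library. Tet2 and Tet3 had fitted values of 0.26 and 0.45 and adjusted p-values of 0.32 and 0.26, with ratios near 0 in 2i (0.04 and -0.11) and higher ones in 2i+vitC (0.48 and 0.98). The glycosylase gene Tdg was at 4.48 and 4.92 CPM and then at 5.10 and 4.32 CPM. Among H3K9 modifiers, the demethylase genes Kdm3a (-0.46), Kdm3b (0.45), and Kdm4a (0.15) and the methyltransferase genes Ehmt1 (-0.13) and Ehmt2 (0.14) did not pass, the closest being Kdm3a at an adjusted p of 0.054. In all, 1 of 23 methylation and H3K9 genes rose and 2 fell.

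Of 30 formative and primed epiblast genes, 8 fell (26.7%) and 3 rose (10%). Besides the Dnmt3 genes, Enpp2, which makes lysophosphatidic acid, was at 10.8 and 12.8 CPM and then at 2.47 and 1.15 CPM. Igfbp3, an IGF-binding protein gene, fell from 508 and 580 CPM to 215 and 126 CPM (log2 fold change -1.71, adjusted p = 0.000498), and the kinase gene Pim2 from 69.7 and 68.6 CPM to 24.4 and 22.0 CPM. Pim2 and Pim1 therefore moved in opposite directions. Sox4 (0.84) and Sox3 (1.39), both SOX factor genes, rose. Otx2, the leading factor of the formative state, was at 2.21 and 3.06 CPM at 4 hr and at 1.58 and 2.02 CPM at 16 hr (adjusted p = 0.54). Fgf5 (47 counts over all 8 libraries) and Pou3f1 (0 counts) were not tested. Leaving out a library gave 6 or 7 falls. Sox3 lost its call without the 16 hr 2i library (adjusted p = 0.11), without the 4 hr 2i+vitC library (0.22), and without the 16 hr 2i+vitC library (0.12). Sox4 did so without the 4 hr 2i+vitC library alone (0.055).

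Genes of retinoic acid binding and response changed in both directions, with more rises than falls. Retinoic acid binds RAR-RXR receptors at their target genes, and CRABP proteins carry it in the cytoplasm. Of 24 genes tested, 10 rose (41.7%) and 4 fell (16.7%), with a median log2 fold change of 0.90. Crabp2 was at 14.7 and 16.5 CPM at 4 hr and at 52.3 and 55.8 CPM at 16 hr (log2 fold change 1.79, standard error 0.22, adjusted p = 0.000471), and reached 3.36 at 24 hr. Crabp1 was at 11.6 and 7.98 CPM and then at 12.4 and 12.2 CPM without passing (adjusted p = 0.30), and its 24 hr value was 2.16 (adjusted p = 4.4e-05). Stra8, a retinoid-induced gene of meiotic entry, went from 5.70 and 4.18 CPM to 20.6 and 31.0 CPM (2.32, adjusted p = 0.000191), and the retinol transporter gene Stra6 from 0.582 and 0.970 CPM to 4.15 and 7.64 CPM. The receptor gene Rarb rose by 2.42 and Aldh1a2, which makes retinoic acid, by 2.07. Aldh1a2 was at 9.60 and 6.19 CPM and then at 39.8 and 26.7 CPM.

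The 4 falls of that list included genes of the same pathway. The receptor gene Rxrg had 27 and 21 counts at 4 hr and 0 and 1 counts at 16 hr (adjusted p = 0.0192), for which no fold is given. Aldh1a3, a second retinaldehyde dehydrogenase gene, had 61 and 19 counts and then 13 and 2 counts (adjusted p = 0.0274). The 6 risers named, Cdx1 included, passed whichever library was left out, and the number of risers was 8 to 10. The number of fallers was 1 or 2, the lowest without the 4 hr 2i and without the 4 hr 2i+vitC library. Rxrg lost its call in 3 of these fits (adjusted p from 0.057 to 0.19) and kept it only without the 16 hr 2i+vitC library, and Aldh1a3 lost it in all 4 (0.073 to 0.25).

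Of 27 Wnt and beta-catenin targets tested, 3 rose and 5 fell, and the median log2 fold change was -0.06. Axin2, the feedback target most often read as Wnt activity, was at 49.1 and 51.2 CPM at 4 hr and at 51.6 and 86.7 CPM at 16 hr (log2 fold change 0.39, adjusted p = 0.17). Sp5 (0.22, adjusted p = 0.36) and Lef1 (0.49, adjusted p = 0.32) did not pass. Beside Cdx1, Tcf7 rose from 17.7 and 17.2 CPM to 25.3 and 56.2 CPM, and Rnf43, a feedback inhibitor at the receptor, from 3.20 and 3.81 CPM to 7.36 and 7.92 CPM. Ccnd1 (cyclin D1) fell from 275 and 299 CPM to 153 and 93.7 CPM (log2 fold change -1.27, standard error 0.19, adjusted p = 0.00142). The mesodermal factor T (Brachyury) fell by 0.88, the ligand gene Wnt3 by 1.02, and the caudal gene Cdx2 by 1.19, opposite to its paralogue Cdx1. Lgr5, an R-spondin receptor gene, had 19 and 33 counts at 4 hr and 0 and 2 counts at 16 hr (adjusted p = 0.0245). Cdx1 and Ccnd1 passed in each of the 4 fits that left out a library. The 6 others that passed lost their call without the 4 hr 2i+vitC library (adjusted p from 0.081 to 0.24), and 3, 5, and 5 of them without the 4 hr 2i, 16 hr 2i, and 16 hr 2i+vitC libraries (up to 0.097, 0.20, and 0.17). The falls numbered 3 without the 4 hr 2i library, 1 without either the 16 hr 2i or the 4 hr 2i+vitC library, and 2 without the 16 hr 2i+vitC library.

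Nodal, which signals through SMAD2 and SMAD3, was lower at 16 hr, whereas one of its targets was lower at 16 hr and higher at 24 hr. Nodal was at 163 and 176 CPM at 4 hr and at 93.9 and 56.0 CPM at 16 hr (log2 fold change -1.23, standard error 0.21, adjusted p = 0.00331) that passed in each of the 4 fits that left out a library. Lefty1, a Nodal antagonist and target, was at 123 and 79.9 CPM and then at 73.1 and 31.4 CPM, a log2 fold change of -1.004 (adjusted p = 0.00416). At 24 hr, on the lane of the 4 hr libraries, its value was 0.66, above 4 hr (adjusted p = 0.021). Lefty2 was at 23.0 and 14.6 CPM and then at 16.3 and 4.47 CPM without passing (adjusted p = 0.051). The coreceptor gene Tdgf1 rose in 2i only by ratio (0.94, against -0.04 in 2i+vitC) and did not pass. Smad7, an inhibitor of TGF-beta and BMP receptors (1.07), the convertase gene Furin (0.89), and the corepressor gene Tgif1 (0.48) rose. Of 22 Nodal genes, 3 rose and 2 fell.

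Among 19 BMP-SMAD targets, 3 rose and 1 fell. Id1, an inhibitor of basic helix-loop-helix factors that serum and BMP induce, was at 52.95 and 46.1 CPM and then at 25.5 and 24.5 CPM (log2 fold change -0.99, standard error 0.19, adjusted p = 0.00542). Id3 moved the other way, from 26.1 and 15.5 CPM to 41.2 and 30.8 CPM (0.81, adjusted p = 0.0167), and Id2 did not pass (adjusted p = 0.49). The homeobox gene Msx1 rose from 2.73 and 1.27 CPM to 9.78 and 8.36 CPM (2.19, adjusted p = 0.00196). Id1, Msx1, Nodal, and Lefty1 passed in all of the 4 fits. Smad7 and Id3 lost their calls without the 16 hr 2i library and without the 4 hr 2i+vitC library, Furin without either 2i+vitC library, and Tgif1 without any but the 16 hr 2i+vitC library (adjusted p from 0.088 to 0.24).

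Some actin and contractile targets of SRF and YAP fell. These factors read serum signals through RhoA and polymerized actin. Of 29 genes tested, 7 fell (24.1%), 22 did not pass, and none rose, with a median log2 fold change of -0.34. Tagln (transgelin) was at 276 and 193 CPM at 4 hr and at 87.7 and 72.2 CPM at 16 hr (log2 fold change -1.54, standard error 0.18, adjusted p = 0.00034). Myl9, a myosin light chain gene, went from 26.0 and 21.3 CPM to 5.41 and 5.76 CPM (-2.09, adjusted p = 0.000957), and Cnn2 (calponin 2) from 295 and 273 CPM to 149 and 113 CPM (-1.12, adjusted p = 0.000487). Acta2, smooth muscle actin, fell by 1.99, Cnn1 by 1.03, and the tropomyosin gene Tpm2 by 0.94. The matricellular YAP target Ccn1 (Cyr61) was at 103 and 141 CPM and then at 64.1 and 38.8 CPM (-1.27, adjusted p = 0.00461). Ccn2 was at 43.4 CPM in both 4 hr libraries and at 26.3 and 30.4 CPM at 16 hr (adjusted p = 0.060). The falls numbered 4 without either 2i library, 5 without the 4 hr 2i+vitC library, and 6 without the 16 hr 2i+vitC library, and 4 genes of the list rose without the 4 hr 2i library. Tagln, Myl9, and Cnn2 passed in all 4 fits. Cnn1 and Tpm2 were lost without either 2i library, Acta2 too without these and without the 16 hr 2i+vitC library, and Ccn1 and Cnn1 without the 4 hr 2i+vitC library, at adjusted p-values from 0.054 to 0.25.

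The RefSeq promoter windows of Myl9 and Cnn2 (GRCm38.p6) are shown because both genes passed in each of those fits and both windows hold a CArG box, the SRF motif, in capitals. A CArG box on either strand was found in 34.5% of 29 windows of the list and in 1.30% of all windows. Among windows of all genes that fell the share was 1.71%, and 33.3% of the 6 windows of list members that fell held one.
Myl9, chr2:156775214-156775513, plus strand: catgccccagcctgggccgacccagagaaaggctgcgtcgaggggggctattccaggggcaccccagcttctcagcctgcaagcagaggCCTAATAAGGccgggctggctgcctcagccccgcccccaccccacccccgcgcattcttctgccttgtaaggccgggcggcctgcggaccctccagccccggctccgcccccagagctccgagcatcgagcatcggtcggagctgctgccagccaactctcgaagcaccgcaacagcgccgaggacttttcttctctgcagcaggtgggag
Cnn2, chr10:79988350-79988649, plus strand: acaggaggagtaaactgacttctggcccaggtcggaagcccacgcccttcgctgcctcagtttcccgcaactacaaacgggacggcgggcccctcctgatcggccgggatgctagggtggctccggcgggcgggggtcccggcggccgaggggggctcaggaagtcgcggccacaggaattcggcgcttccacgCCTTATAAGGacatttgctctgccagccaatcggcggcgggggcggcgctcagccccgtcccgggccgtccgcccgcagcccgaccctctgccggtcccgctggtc
The windows of all fallen genes differed from those of all risen genes in the ETS motif CCGGAAG, searched on both strands. It was in 23.4% of 994 windows of genes that fell, in 8.51% of 1410 windows of genes that rose, and in 16.5% of the 13510 windows. Of 24 windows of FGF-ERK feedback and ETS genes, 4.17% held it. This motif was picked from several that were searched, and the difference was not tested. A match is a description of these letters and not a site.

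Cholesterol genes gave the highest share of rises of the lists plotted. SREBP2 drives them when sterol levels in the endoplasmic reticulum are low. Of 31 genes of synthesis and uptake tested, 23 rose (74.2%) and none fell, and the median log2 fold change was 0.93 (0.92 in 2i, 0.83 in 2i+vitC, and 0.77 at 24 hr). In 27 of the 31 both 16 hr libraries were above both 4 hr libraries, as in 29.3% of all genes tested. Sqle, a control point of the pathway, was at 135 and 126 CPM at 4 hr and at 264 and 246 CPM at 16 hr, with a ratio of 0.97 in both treatments. Other enzymes of the list had larger folds. Dhcr7, which makes cholesterol from its last precursor, was at 19.14 and 15.2 CPM and then at 64.9 and 80.1 CPM (2.05, standard error 0.21, adjusted p = 0.000191), and Nsdhl at 23.0 and 27.7 CPM and then at 79.8 and 78.5 CPM (1.65, adjusted p = 8.54e-05). Cyp51 and Mvd both rose by 1.26 and Tm7sf2, a sterol reductase gene, by 1.52.

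An uptake gene of that list rose as well. Vldlr, a lipoprotein receptor gene, was at 4.13 and 5.89 CPM and then at 19.6 and 9.65 CPM. Vldlr rose more in 2i (ratio 2.20) than in 2i+vitC (0.70). Of 10 sterol efflux and LXR genes, 1 rose, Lpcat3, a phospholipid acyltransferase gene (1.14, adjusted p = 0.00135). The transporter genes Abca1 (-0.22) and Abcg1 (0.35) did not pass (adjusted p = 0.40 and 0.44). Leaving out a library gave 19 to 21 rises, and the covariate for uneven reads gave 5 rises with a median of 0.92. Vldlr lost its call without the 4 hr 2i library (adjusted p = 0.092) or the 16 hr 2i library (0.13). The letters TCACNCCAC of a sterol regulatory element, on either strand, were in none of 31 promoter windows of the list and in 1.15% of all windows.

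Fatty acid synthesis and desaturation genes are controlled by SREBP1 and LXR. Of 31 tested, 17 rose (54.8%) and 1 fell (3.23%), with a median log2 fold change of 0.54. Scd1, the stearoyl-CoA desaturase, was at 166 and 156 CPM at 4 hr and at 856 and 940 CPM at 16 hr, a 5.55-fold rise (log2 fold change 2.47, standard error 0.16, adjusted p = 2.11e-05). Scd2 went from 1464 and 1431 CPM to 3627 and 3160 CPM. The polyunsaturated fatty acid desaturase genes Fads2 and Fads1 rose by 2.03 and 1.65, Fads2 from 25.1 and 24.2 CPM to 118 and 85.2 CPM (adjusted p = 3.77e-05). Fasn, the synthase, was at 512 and 514 CPM and then at 820 and 1194 CPM (0.94, adjusted p = 0.00266), and Acaca, the acetyl-CoA carboxylase that supplies it, rose by 0.53. Acss2, which makes acetyl-CoA from acetate, rose by 1.58, the acyl-CoA ligase gene Acsl4 by 1.11, and the enoyl reductase gene Tecr by 1.02. Thrsp, a lipogenic regulator, had 10 and 1 counts at 4 hr and 40 and 16 counts at 16 hr.

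Of 19 fatty acid oxidation and PPAR genes, 3 rose and 1 fell. Cpt1a, which admits acyl groups to mitochondria, was at 39.3 and 39.2 CPM and then at 85.6 and 95.1 CPM (log2 fold change 1.20, standard error 0.14, adjusted p = 0.000362). Idh1, the cytosolic NADP-dependent isocitrate dehydrogenase, is not in that list and rose from 106 and 94.6 CPM to 251 and 217 CPM (1.22, adjusted p = 0.000304). Pdk4 did not pass (0.84, adjusted p = 0.16). The 17 rises of the synthesis list became 9 without the 4 hr 2i+vitC library and 12 to 16 without another. Fasn, Acaca, and Thrsp lost their calls without the 4 hr 2i+vitC library (adjusted p from 0.055 to 0.19). Acaca did so also without the 4 hr 2i library (0.095), Thrsp without the 16 hr 2i library (0.14), and both without the 16 hr 2i+vitC library (0.093 and 0.19).

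**Figure D4:**
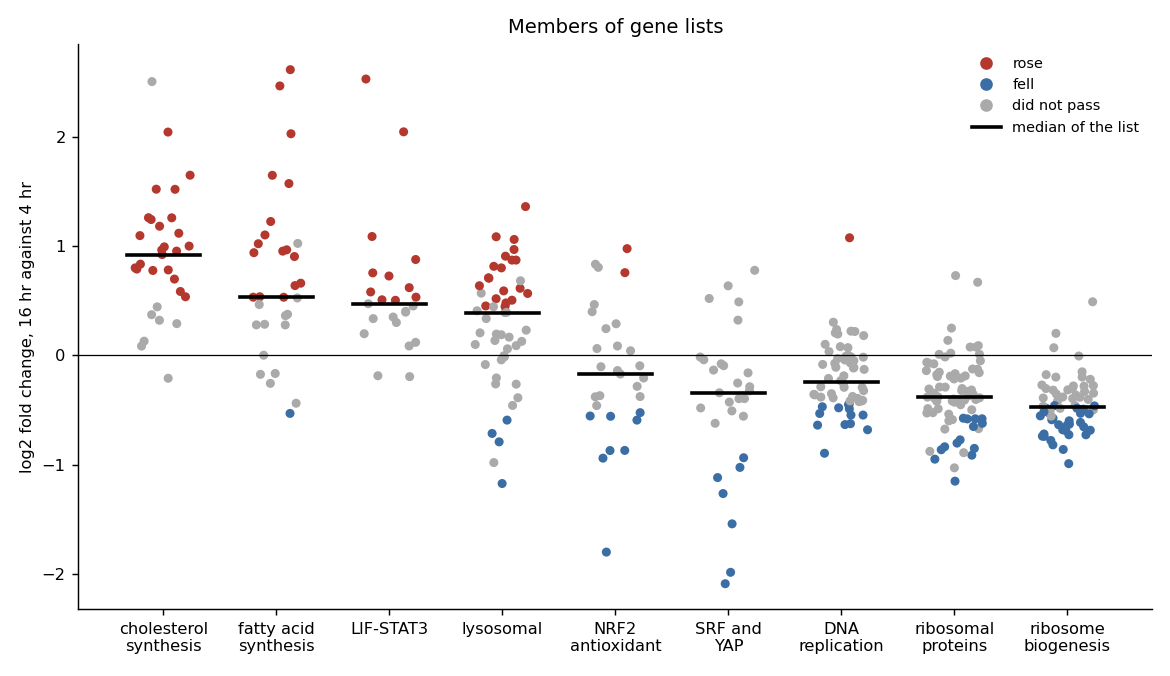
Log2 fold change of 16 hr against 4 hr for each member tested of 9 gene lists, with 1 point per gene, coloured by whether it rose, fell, or did not pass, and a bar at the list's median. The medians run from 0.93 for cholesterol genes to -0.47 for ribosome biogenesis genes, and no cholesterol gene fell past the threshold.

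Lysosomal genes rose in number but not in all members. Of 51 tested, 20 rose (39.2%) and 4 fell (7.84%), with a median log2 fold change of 0.39. Glb1 (beta-galactosidase) was at 19.8 and 25.4 CPM at 4 hr and at 63.7 and 52.2 CPM at 16 hr (log2 fold change 1.37, standard error 0.18, adjusted p = 0.000688). The peptidase gene Tpp1 rose by 1.09, the sulphatase gene Arsa by 1.06, the proton pump gene Atp6v0a1 by 0.97, and the cathepsin gene Ctsc by 0.91. The abundant Lamp1 (414 and 449 CPM, then 554 and 457 CPM) and Ctsd (296 and 322 CPM, then 325 and 261 CPM) did not pass. Tfeb, the transcription factor that activates these genes, fell from 31.9 and 26.6 CPM to 18.9 and 14.7 CPM (-0.79, adjusted p = 0.0186), and Ctsf fell by 1.17. The rises numbered 10 without the 4 hr 2i library, 7 without the 16 hr 2i library, 8 without the 4 hr 2i+vitC library, and 16 without the 16 hr 2i+vitC library. Glb1, Arsa, Atp6v0a1, and Ctsc passed in all 4 fits. Tfeb and Ctsf passed in none of them (adjusted p from 0.051 to 0.17), and Tpp1 was lost without the 4 hr 2i+vitC library, within the same range.

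The Glb1 window (RefSeq, GRCm38.p6) is shown with the E-box CACGTG, the core of the motif that TFEB binds, in capitals. The letters read the same on both strands, and they were in 32.6% of 46 windows of lysosomal genes and in 9.80% of all windows. They were in 7.87% of windows of all genes that rose and in 12.7% of all that fell. Within the list they were in 33.3% of 15 windows of risers and 16.7% of 6 windows of fallers. Windows of Lamp1 and Ctsd, which did not pass, and of Ctsf, which fell, held them as well.
Glb1, chr9:114400828-114401127, plus strand: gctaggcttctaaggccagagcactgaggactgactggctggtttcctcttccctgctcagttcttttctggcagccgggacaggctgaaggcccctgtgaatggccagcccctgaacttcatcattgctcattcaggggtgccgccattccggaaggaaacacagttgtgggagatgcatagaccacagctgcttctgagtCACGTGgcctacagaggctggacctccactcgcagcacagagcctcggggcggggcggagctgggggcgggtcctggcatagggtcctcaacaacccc

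Glycolysis genes and HIF1 targets had lower ratios in 2i+vitC than in 2i at the median. Over 27 glycolysis and lactate genes the median ratio was 0.25 in 2i and -0.29 in 2i+vitC, and 3 rose and none fell. Over 31 HIF1 targets outside glycolysis the median was 0.42 in 2i and 0.06 in 2i+vitC, and 8 rose (25.8%) and none fell. HIF1 is degraded after prolyl hydroxylation, by enzymes that use vitC as a cofactor. Slc2a3 (GLUT3) was at 1824 and 2021 CPM at 4 hr and at 4008 and 2420 CPM at 16 hr, a ratio of 1.14 in 2i and 0.26 in 2i+vitC (log2 fold change 0.68, adjusted p = 0.0312). Bnip3, a mitophagy gene induced by hypoxia, was at 4.02 and 5.07 CPM and then at 20.3 and 5.48 CPM, ratios of 2.29 and 0.11. Stc2 had ratios of 1.41 and 0.53. The difference between the treatments was not tested, as each has 1 library at each time.

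Other genes of these lists had rises in both treatments. Vegfa went from 32.5 and 20.1 CPM to 74.7 and 64.0 CPM (log2 fold change 1.42, standard error 0.16, adjusted p = 0.000325), and Ddit4, an mTOR inhibitor, from 157 and 102 CPM to 343 and 279 CPM (1.29, adjusted p = 0.000336). Hk1 rose by 1.33 and Aldoc by 1.52. Hk2 (0.38, adjusted p = 0.066), Ldha (-0.01), Pgk1 (-0.20), Slc2a1 (-0.21), and Egln3 (0.54) did not pass. Vegfa, Ddit4, Hk1, and Aldoc passed in each of the 4 fits that left out a library. Slc2a3, Bnip3, and Stc2 lost their calls without either 2i library, at adjusted p-values of 0.15 to 0.75 for both fits, and Bnip3 also without the 4 hr 2i+vitC library (0.053). The HIF1 targets that rose numbered 3 without the 4 hr 2i library, 2 without the 16 hr 2i library, 5 without the 4 hr 2i+vitC library, and 11 without the 16 hr 2i+vitC library, where 1 fell. Car9 had 51 counts over all 8 libraries and was not tested.

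Antioxidant genes under NRF2 fell in part. Of 29 tested, metallothioneins included, 8 fell (27.6%) and 2 rose (6.90%). Hmox1, which degrades haem, was at 297 and 286 CPM at 4 hr and at 98.9 and 68.7 CPM at 16 hr (log2 fold change -1.80, standard error 0.16, adjusted p = 8.47e-05). Both subunits of glutamate-cysteine ligase, Gclc and Gclm, which start glutathione synthesis, fell by 0.87, and Nqo1, a quinone reductase gene, by 0.56. The glutathione transferase gene Gsto1 fell by 0.94. Cat (catalase) rose from 61.6 and 56.6 CPM to 105 and 130 CPM. Mt1 and Mt2 had opposite ratios in the treatments, -0.25 and -0.996 in 2i and 0.44 and 0.24 in 2i+vitC, and did not pass. The falls of the list numbered 6 without any single library other than the 4 hr 2i+vitC library, without which they numbered 3.

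Stress and p53 genes gave mixed lists. Of 31 unfolded protein response and heat shock genes, 5 fell and 1 rose. Hspa5 (BiP), the main chaperone of the endoplasmic reticulum, was at 1322 and 967 CPM at 4 hr and at 507 and 582 CPM at 16 hr (log2 fold change -1.06, standard error 0.16, adjusted p = 0.00178). The near-identical copies Hspa1a and Hspa1b, whose reads may be shared, fell by 1.59 and 1.10, whereas Xbp1 (0.28) and Hsph1 (0.43) did not pass. The falls of this list numbered 1 without either 2i library, 4 without the 4 hr 2i+vitC library, and 2 without the 16 hr 2i+vitC library, and 4 genes rose without the 4 hr 2i library. Of 45 ATF4 response and serine synthesis genes, 12 rose (26.7%) and 6 fell (13.3%). Chac1, a glutathione-degrading enzyme, was at 2.68 and 9.40 CPM and then at 19.08 and 15.1 CPM, the glycine transporter gene Slc6a9 rose by 1.44, and Nupr1 by 1.42. Atf4 (0.39), Asns (0.22), Trib3 (0.47), Phgdh (-0.40), and Psat1 (-0.22) did not pass. The ATF4 rises numbered 4 without the 4 hr 2i library, 3 without the 16 hr 2i library, 8 without the 4 hr 2i+vitC library, and 11 without the 16 hr 2i+vitC library.

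Of 29 p53 targets, 10 fell (34.5%) and 3 rose (10.3%). Perp, a desmosome gene, fell from 269 and 272 CPM to 179 and 107 CPM, Rprm by 1.85, the apoptosis gene Pmaip1 by 1.05, and Mdm2, which degrades p53, by 0.63. Ccng1 did not pass (-0.50, adjusted p = 0.052). Cdkn1a (p21) moved the other way, from 45.0 and 36.6 CPM to 67.8 and 124 CPM (1.14, adjusted p = 0.00707). The p53 falls numbered 5 without the 16 hr 2i library, 1 without the 4 hr 2i+vitC library, and 4 without the 16 hr 2i+vitC library. Of the 17 stress, NRF2, ATF4, and p53 genes named as changed, Hmox1, Gclc, Gclm, and Hspa5 passed in each of the 4 fits that left out a library. Without the 4 hr 2i+vitC library 9 were lost (adjusted p from 0.051 to 0.24), without the 16 hr 2i library 7 (0.068 to 0.40), without the 16 hr 2i+vitC library 6 (0.056 to 0.12), and without the 4 hr 2i library 5 (0.052 to 0.26).

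A part of the genes of ribosome production fell. They are driven by MYC and growth factor signals and encode the machinery that processes ribosomal RNA in the nucleolus. Of 64 ribosome biogenesis genes tested, 30 fell (46.9%), 34 did not pass, and none rose, with a median log2 fold change of -0.47 (-0.56 in 2i, -0.40 in 2i+vitC, and -0.36 at 24 hr). In 52 of the 64 both 16 hr libraries were below both 4 hr libraries, as in 28.8% of all genes tested. The summed level of the list was 15870 and 15150 CPM at 4 hr and 10440 and 11940 CPM at 16 hr. Wdr74 was at 170 and 149 CPM and then at 83.3 and 77.4 CPM (log2 fold change -0.99, standard error 0.14, adjusted p = 0.000965), Nip7 fell by 0.86, Grwd1 by 0.82, the snoRNP protein gene Nop58 by 0.78, and Npm1 (nucleophosmin) by 0.63. Nop56 did not pass (-0.30, adjusted p = 0.14). Ncl (nucleolin) and Fbl (fibrillarin) had ratios of -0.87 and -1.43 in 2i and of 0.58 and 1.33 in 2i+vitC, and fitted values of -0.15 and 0.00. The falls numbered 17 without the 4 hr 2i library, 11 without the 16 hr 2i library, 6 without the 4 hr 2i+vitC library, and 25 without the 16 hr 2i+vitC library, and 1 gene rose without either 2i library. With the covariate for uneven reads 2 fell, at a median of -0.70.

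Ribosomal protein genes fell in a smaller share. Of 78 tested, 14 fell (17.9%) and none rose, and the median was -0.38. Rplp0 went from 1054 and 941 CPM to 738 and 603 CPM (log2 fold change -0.58, adjusted p = 0.0214), Rpl27 fell by 0.91, Rps6 by 0.95, Rpl18 by 0.86, and Rpl41 by 1.15, while Rpl3 did not pass (-0.45). Many of these genes have processed copies with which they may share reads, so their levels are uncertain. Of 69 nuclear oxidative phosphorylation genes 1 fell, Cox4i1 (-0.50, adjusted p = 0.0418), and the median was -0.29. In 39 of the 69 both 16 hr libraries were below both 4 hr libraries, whereas this held for 28.8% of all genes tested. Ndufs1 (-0.29), Uqcrc1 (-0.21), and Cox5a (-0.24) did not pass. Without the 16 hr 2i+vitC library 13 of the 69 fell. The ribosomal protein falls numbered 8 without the 4 hr 2i library, 4 without the 16 hr 2i library, 3 without the 4 hr 2i+vitC library, and 16 without the 16 hr 2i+vitC library. Of the 11 genes of ribosomes and respiration named as fallen, Wdr74, Nip7, Grwd1, and Rpl27 passed in all 4 fits. The others were lost in 1 or more, 6 of them without the 16 hr 2i library (adjusted p from 0.065 to 0.43), 6 without the 4 hr 2i+vitC library (0.063 to 0.23), 4 without the 4 hr 2i library (0.096 to 0.30), and 2 without the 16 hr 2i+vitC library (0.12 to 0.14).

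Of 24 FOXO and insulin response genes 8 rose and 2 fell, with 6, 4, 1, and 3 rises without the 4 hr 2i, 16 hr 2i, 4 hr 2i+vitC, and 16 hr 2i+vitC libraries. Of 26 tricarboxylic acid cycle genes 3 rose and 2 fell, of 48 replication-dependent histone genes 2 rose and 2 fell, and of 346 Zfp-named zinc finger genes 18 rose and 15 fell. The zinc finger rises numbered 13, 10, 4, and 6 in the same fits, in that order, and the falls 10, 5, 3, and 9.

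**Figure D5:**
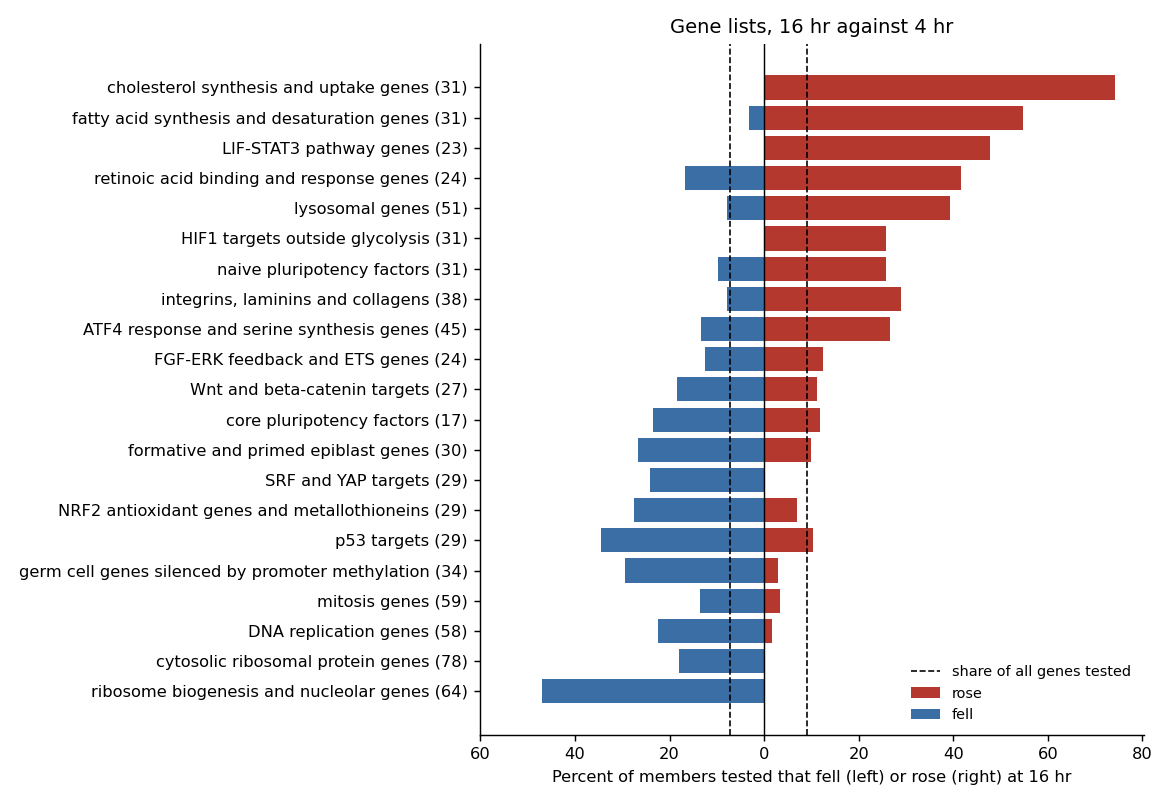
Percent of the members tested of 21 gene lists that fell (blue, left) or rose (red, right) at 16 hr, with the number tested in brackets and dashed lines at the shares over all genes tested (7.24% and 9.16%). Cholesterol genes (74.2% rose) and ribosome biogenesis genes (46.9% fell) lie farthest out.

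Of 58 DNA replication genes, 13 fell (22.4%) and 1 rose, with a median log2 fold change of -0.24. Rpa2, a subunit of the single-strand binding protein, was at 166 and 157 CPM at 4 hr and at 86.5 and 87.0 CPM at 16 hr (log2 fold change -0.90, standard error 0.15, adjusted p = 0.0028). The flap endonuclease gene Fen1 fell by 0.64, Mcm7 by 0.63, and Gins3 by 0.68, whereas Mcm2 (-0.21), Pcna (-0.42), Cdc6 (-0.35), and Ccne1 (-0.29) did not pass. E2f1 rose from 15.5 and 10.97 CPM to 25.1 and 31.7 CPM. Of 59 mitosis genes, 8 fell (13.6%) and 2 rose (3.39%). Cdc20 went from 298 and 281 CPM to 166 and 142 CPM (-0.92, adjusted p = 0.00305), Ckap2 fell by 0.97, and Foxm1 rose by 1.03, while Ccnb1 (-0.43), Cdk1 (-0.37), Plk1 (-0.08), and Top2a (-0.29) did not pass. The E2F letters TTCCCGC, on either strand, were in 34.5% of 55 windows of replication genes and in 8.23% of all windows. The replication falls numbered 5, 4, 1, and 4 without the 4 hr 2i, 16 hr 2i, 4 hr 2i+vitC, and 16 hr 2i+vitC libraries, and the mitosis falls 7, 4, 2, and 6.

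The D cyclins, which carry growth signals into G1, split. Ccnd1 fell, as given above, and Ccnd2 rose from 21.4 and 24.2 CPM to 39.1 and 36.6 CPM (log2 fold change 0.73, adjusted p = 0.014). Ccnd3 rose by 0.42 (adjusted p = 0.0497). The CDK phosphatase gene Cdc25a fell by 0.68, and Cdkn1b (p27) did not pass (0.25). Of 24 G1 cyclins and CDK inhibitors, 4 rose and 3 fell. Among the cycle genes named as changed, Cdkn1a included, Rpa2, Cdc20, Ckap2, and Ccnd1 passed in all 4 fits that left out a library. Of the 13, 8 were lost without the 4 hr 2i+vitC library (adjusted p from 0.062 to 0.25), 5 without the 16 hr 2i+vitC library (0.055 to 0.080), 3 without the 16 hr 2i library (0.060 to 0.24), and 2 without the 4 hr 2i library (0.10 to 0.14).

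Markers of other cell types were present at low to high levels, depending on the gene. The ESC markers Pou5f1 and Sox2 were between 120 and 505 CPM in the 4 libraries. Of 21 primitive endoderm genes 3 rose and 1 fell, with a summed level of 2485 and 2262 CPM at 4 hr and 2372 and 2954 CPM at 16 hr. Gata4, Gata6, and Sox17 were between 0.0746 and 2.50 CPM and did not pass, so other members held nearly all of that sum. A summed level, here and for the lists that follow, can rest on a few abundant members and is no measure of cells of that type. Of 15 mesoderm and mesendoderm genes 2 rose and 5 fell, with a summed level of 79.6 and 75.7 CPM at 4 hr and 63.3 and 66.6 CPM at 16 hr. Those falls numbered 2 without the 4 hr 2i library and none without another. Afp had 2 counts and Ttr 0 over all 8 libraries. The mesendoderm gene Eomes fell from 5.24 and 5.60 CPM to 2.42 and 2.02 CPM (adjusted p = 0.0462), and Gsc rose from 0.407 and 0.298 CPM to 2.05 and 2.88 CPM (adjusted p = 0.0125), near the 3-count floor at 4 hr. Kdr did not pass (0.11). Of 17 neural genes 3 rose and 4 fell, and their summed level was 870 and 775 CPM at 4 hr and 580 and 648 CPM at 16 hr. Msi1, an RNA-binding protein gene, rose by 1.39, the microtubule gene Map2 by 0.79, and Hes1, a Notch target, by 0.71, while the SOX factor gene Sox21 fell by 1.41 (0.41 at 24 hr). None of these 4 passed in each of the 4 fits that left out a library (adjusted p of up to 0.31). Intermediate filament and tubulin genes fell, Nefl from 152 and 131 CPM to 66.6 and 53.3 CPM (log2 fold change -1.25, standard error 0.16, adjusted p = 0.000643), Nes by 0.79, and Tubb3 by 0.71, while Neurog2 had 2 counts over all 8 libraries. Without the 4 hr 2i, 16 hr 2i, 4 hr 2i+vitC, and 16 hr 2i+vitC libraries the neural rises numbered 2, 1, 0, and 2 and the falls 2, 1, 1, and 3. Of 15 trophoblast genes 3 rose and 4 fell, with a summed level of 2133 and 1764 CPM and then 1621 and 2169 CPM, and the falls numbered 1, 0, 1, and 2 in the same fits. Among them Tfap2c rose from 52.4 and 52.98 CPM to 87.0 and 111 CPM and Esx1 from 0.640 and 0.522 CPM to 3.73 and 4.03 CPM, while Krt7, Ascl2, and Gata3 did not pass. Krt8 and Krt18, keratins of simple epithelia, fell by 0.58 and 0.64. The blood marker Ptprc had 13 counts over all 8 libraries, and Cd34 did not pass (-0.71).

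The culture had no feeders per the labels, and feeder markers were mixed. Col1a1 was at 50.7 and 47.6 CPM at 4 hr and at 121 and 233 CPM at 16 hr (log2 fold change 1.72, standard error 0.26, adjusted p = 0.0018), Col1a2 at 49.8 and 39.4 CPM and then at 128 and 169 CPM (1.71, adjusted p = 0.000241), and Pdgfrb rose by 1.25. Other fibroblast genes were low and did not pass, with Col3a1 at 4.25 to 6.23 CPM, Thy1 at 2.84 to 6.52 CPM, Twist1 at 3.68 to 8.03 CPM, and Postn at 0.970 to 2.21 CPM over the 4 libraries. Of 17 feeder genes, 3 rose and none fell, and their summed level was 825 and 826 CPM at 4 hr and 866 and 1008 CPM at 16 hr. Among the other lineage and feeder genes named as changed, with T, Cdx2, and Fn1, Col1a1, Col1a2, Pdgfrb, Tfap2c, Nefl, and Esx1 passed in all 4 fits that left out a library. The numbers lost were 8 without the 16 hr 2i library (adjusted p from 0.070 to 0.25), 8 without the 4 hr 2i+vitC library (0.055 to 0.24), 5 without the 4 hr 2i library (0.066 to 0.14), and 3 without the 16 hr 2i+vitC library (0.12 to 0.19).

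Of 38 integrins, laminins, and collagens, 11 rose (28.9%), 3 fell (7.89%), and 24 did not pass. The median log2 fold change was 0.22, and -0.03 with the GC and length correction. Fibronectin (Fn1) was at 202 and 215 CPM at 4 hr and at 321 and 696 CPM at 16 hr (log2 fold change 1.18, adjusted p = 0.00435), and passed except without the 4 hr 2i+vitC library. The basement membrane collagen genes Col4a5 (1.42) and Col4a6 (1.55) rose together, from 7.10 and 7.24 CPM to 18.6 and 19.9 CPM in the case of Col4a5. Itga9 fell by 1.51. Itga6 (0.37), Itgb1 (-0.22), Lama1 (-0.27), and Col4a1 (-0.17) did not pass. Among 38 epithelial and mesenchymal markers, 7 fell (18.4%) and 3 rose (7.89%). Those falls numbered 4, 5, 3, and 6 without the 4 hr 2i, 16 hr 2i, 4 hr 2i+vitC, and 16 hr 2i+vitC libraries, and the rises 3, 3, 0, and 1. S100a6, a calcium-binding protein gene, went from 388 and 284 CPM to 159 and 148 CPM (-1.11, standard error 0.16, adjusted p = 0.00107), the annexin gene Anxa3 fell by 0.79, and Epcam by 0.61, while Cdh1 (0.29), Cdh2 (0.59), Vim (-0.42), and Snai1 (0.69) did not pass and Zeb2 rose by 0.67. The matrix rises numbered 5 without the 4 hr 2i+vitC library, 7 without the 16 hr 2i+vitC library, and 9 without either 2i library. Epcam lost its call without the 16 hr 2i library (adjusted p = 0.098) and without the 4 hr 2i+vitC library, and Zeb2 without any but the 16 hr 2i library, at 0.092 to 0.19.

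Germ cell genes that promoter methylation silences in somatic cells fell in part. Of 34 tested, 10 fell (29.4%) and 1 rose (2.94%), with a median log2 fold change of -0.46. Tex19.1, which guards the germline against retrotransposons, was at 123 and 135 CPM at 4 hr and at 55.8 and 38.8 CPM at 16 hr (log2 fold change -1.45, standard error 0.17, adjusted p = 0.000336). The RNA helicase gene Ddx4 fell from 16.8 and 19.4 CPM to 7.67 and 7.20 CPM, Mael, of the piRNA pathway, by 0.86, the meiotic gene Hormad1 by 1.10, Slc25a31 by 1.62, and Sycp1 by 2.27. Sycp1 was at -0.08 at 24 hr. Dazl was at 26.7 and 20.1 CPM and then at 15.1 and 26.4 CPM (adjusted p = 0.54), and Sycp3 did not pass (-0.36). Rec8, a meiotic cohesin gene, rose from 5.35 and 5.37 CPM to 14.7 and 14.4 CPM (1.44, adjusted p = 0.00205). The falls numbered 5, 2, 3, and 4 without the 4 hr 2i, 16 hr 2i, 4 hr 2i+vitC, and 16 hr 2i+vitC libraries. Tex19.1 and Rec8 passed in each of these fits. The other fallers named were lost in some of them, 2 without the 4 hr 2i library (adjusted p from 0.11 to 0.15), 5 without the 16 hr 2i library (0.069 to 0.29), 5 without the 4 hr 2i+vitC library (0.063 to 0.23), and 3 without the 16 hr 2i+vitC library (0.12 to 0.13).

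The features with the largest fitted rises of all were highest by far, among the 4 libraries, at 16 hr in 2i+vitC. Lars2, the nuclear gene of mitochondrial leucyl-tRNA synthetase, was at 35.6 and 29.5 CPM at 4 hr and at 154 and 14990 CPM at 16 hr. Gm23935 was at 4.42 and 3.66 CPM and then at 31.1 and 5227 CPM, and ENSMUSG00000093077 at 240 and 78.0 CPM and then at 1814 and 51158 CPM. ENSMUSG00000093337 and Gm15564 followed with 484 and 242 CPM in the 16 hr 2i+vitC library and with at most 5.73 CPM in the other 3. Whether the reads on these features came from transcripts of the genes they are named for was not tested. All 5 were also higher at 16 hr in 2i, with ratios of 2.11 to 3.23. Their fitted log2 fold changes of 6.27 to 8.43 had standard errors of 1.15 to 1.53, and all 5 kept their call without the 16 hr 2i+vitC library and lost it without the 4 hr 2i+vitC library (adjusted p from 0.055 to 0.073). Of the mitochondrially encoded genes, mt-Nd2 rose (1.05, adjusted p = 0.0445), and mt-Nd1 was at 267 and 317 CPM and then at 272 and 899 CPM, high in the same library. mt-Cytb (0.88) and mt-Co1 (0.54) did not pass. Of 7 mitochondrially encoded genes 1 rose, and 6 did so without the 4 hr 2i library. Among long noncoding RNAs, Neat1 rose by 0.76 and Meg3 by 0.71, while Malat1 (-0.09) and Gas5 (-0.26) did not pass. Without the 4 hr 2i+vitC library and without the 16 hr 2i+vitC library mt-Nd2, Neat1, and Meg3 lost their calls (adjusted p of up to 0.39 and 0.20), mt-Nd2 also without the 16 hr 2i library (0.071) and Neat1 without the 4 hr 2i library (0.059).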

How the data were processed

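Per the labels, total RNA was depleted of ribosomal RNA, made into TruSeq libraries, and sequenced as 50 bp single-end reads. Per the submitters' processing notes, reads were handled with GSNAP and HTSeq, and the notes name NCBIM37 and mm9. The authors deposited raw counts per Ensembl gene, without normalization, and the strand setting is not given in the sources used here. Groups came from the labels, and lanes were read from the lane field of the deposited file names.

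GENCODE M21 (GRCm38) matched 32604 of 37263 identifiers and gave symbols, biotypes, exon lengths, and GC content, but no coordinates. RefSeq promoter windows of 300 bases were found for 10551 genes tested. The 14931 genes that reached 1 CPM in 2 or more libraries were tested with edgeR 4.0.16 in R 4.3.3 (TMM, additive model of treatment and time on 8 libraries, quasi-likelihood test, Benjamini-Hochberg threshold 0.05). Every adjusted p is from this test unless another fit is named. Ratios within a treatment used a prior count of 2. The fit was tested on simulated data. Each combination had 1 library, so p-values weigh the change between the times against an error taken from departures from an additive time course.

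The comparison, gene lists, motifs, and naming rule were chosen with earlier results of these data known. Named genes were the 12 largest protein-coding rises and falls (mean of at least 5 CPM, same direction in both treatments), 6 features of other biotypes, the methylation and H3K9 genes of the study, and, in each list, its defining members and up to 6 others with the largest changes. Some of these are not reported here. Alternatives were other scalings and filters, DESeq2 1.42.0, fewer libraries, no treatment term, a GC and length correction, the covariate, thinning, and leaving out each library. A single library left on one side was assumed to vary like the others.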

Additional observations from a re-analysis of the deposited data

Results flagged for a closer look

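For 14 of 291 genes named in the report the ratio of 16 hr to 4 hr had opposite signs in 2i and 2i+vitC beyond counting error. The check was made for named genes only. The share over all genes tested was not computed, so whether 14 is many cannot be said. The difference between the treatments was not tested, since each had 1 library at each time. The difference of the log2 ratios, 2i+vitC minus 2i, was positive for Fbl (2.76), Krt7 (1.78), Ncl (1.44), Mt2 (1.24), Dazl (1.20), Hsph1 (1.19), Col4a1 (0.82), Mt1 (0.68), and Malat1 (0.40). It was negative for Psat1 (-0.90), Slc2a1 (-0.89), Etv5 (-0.72), Ctsd (-0.44), and Ldha (-0.36). None of the 14 genes passed the threshold in the additive fit. Opposite ratios offset one another in that fit, so this follows largely from how the genes were picked.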

How the results depend on the processing

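Of the 2448 calls, 1367 rises, and 1081 falls, a fit to the 4 libraries of the comparison alone gave 1367, 820, and 547, and a fit without the treatment term, that is without treatment as a block, gave 1289, 724, and 565. With a covariate for the read share of Lars2 and its companions, the numbers were 73, 34, and 39, and of the genes named in the report Lars2 (-0.48), Gm23935 (-0.65), ENSMUSG00000093077 (-0.13), and Dppa3 (-0.013) changed sign, as did 31 of all calls. Leaving out 1 library gave 647 to 1792 calls, 388 to 1105 rises, and 259 to 687 falls. The other alternatives (3 scalings, removal of the uneven features, 2 filters, DESeq2, a GC and length correction, thinning) gave 1999 to 3145 calls, and no call changed direction under them. The GC and length correction turned the balance to 1209 rises and 1299 falls. Lefty1, which was lower at 16 hr (-1.004), was at 0.66 at 24 hr within the lane of 4 hr, and Sox21 (-1.41) was at 0.41. The causes of these shifts were not tested, apart from the smaller number of libraries or reads in some fits. The pairing of 16 hr with 4 hr was by treatment, since the labels number no replicates. At 1 CPM the Wilson interval in the 16 hr 2i+vitC library was 0.487 to 2.07 CPM, so small changes of low genes were not detectable at this depth.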
